A study of Mus musculus with 26 samples.

Results

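The Rn45s copy is the stretch of mouse chromosome 17 to which reads of the 45S ribosomal RNA genes were aligned, and all CpG positions in an interval of 8001 bp that holds it (GRCm38) were taken. Of 1053 CpG positions listed there in at least 1 library, 765 had at least 10 reads in at least 1 library and 529 had at least 10 reads in all 26 libraries, out of 46151 such positions in the whole series. The 529 positions belong to 387 CpGs, of which 142 were kept on both strands, and ran from 39843014 to 39848799. No upper limit of coverage was set, since a limit at the top percentile that the study's methods use would leave 14 of them.

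The 45S gene is transcribed by RNA polymerase I, and its transcript is cut into the 18S, 5.8S and 28S ribosomal RNAs. It is present in many tandem copies, some of which are active while others are silent and carry methylated CpGs, and methylation of these genes has been described to rise with age in several mammalian tissues. The interval gathers reads of many copies, so each level below is an average over the copies whose reads were aligned there and over sperm. Whether reads of other copies were aligned elsewhere was not examined. A few copies methylated in every sperm and all copies methylated in a few sperm cannot be told apart.

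Sperm of 26 male mice was measured with reduced-representation bisulfite sequencing (RRBS), which enriches CpG-rich fragments and gives the share of unconverted, hence methylated, reads at each CpG. SSCT F0 were 3 sterile W/W-v males transplanted with DBA/2J spermatogonial stem cells kept in culture as several cell lines (SSCT is the transplantation of these cells), whose sperm came from the donor cells, and control F0 were 3 DBA/2J males. Both F0 groups were 16 to 18 months old. Control F1 and SSCT F1 were offspring of control or transplanted fathers and DBA/2J females, while SSCT F2/M had SSCT F1 mothers and control fathers and SSCT F2/P had SSCT F1 fathers and control mothers, with 5 males of 3 months in each of these 4 sets. All offspring were young and all F0 mice old, so age and generation cannot be told apart.

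The sample titles and the clustering heatmap of the study disagree on the names of the 4 offspring sets. The titles were used, the value under the names of the heatmap is given beside each comparison with control F1, and comparisons with all 20 offspring do not depend on the names. The 3 SSCT F0 libraries stood apart: the protocol names 3 libraries of lower DNA input, with the numbers that mark the SSCT F0 libraries, and replicates 1, 2 and 3 listed 1977100, 1123580 and 305964 positions against 1995496 to 2232483 in the offspring. Markers of sperm were as follows in the other 23 mice. The median level over 13 maternal germline imprinted regions, which sperm lacks, was 0.83% to 2.49%, and over 3 paternal ones, which sperm carries, 93.0% to 100%. In SSCT F0 the medians were 1.57% to 2.76% over the 8 to 13 maternal regions covered, and 50% to 96.5% over the paternal regions covered, of which 1 library had 0. The 50%, in replicate 2, is the midpoint of 0% at H19 (1 position) and 100% at Rasgrf1 (2 positions), so no region read 50%. In replicate 3 the highest of the 8 maternal regions was Peg3 at 24.0%, beside a median of 2.53%. Spiked-in unmethylated control DNA read 0.542% to 1.26% methylated in the 26 libraries.

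Reads were summed over CpG positions, so a read that covers several CpGs was counted once at each. In this count the Rn45s positions took 1.76% to 3.03% of a library, or 802386 to 2279574. The median position had 1377 to 3553 reads in a library, against 23 to 32 at the median position of 10 or more reads genome-wide in the offspring. With these depths the counting error of a mouse's level came to at most 0.042 percentage points, for counting alone and with PCR copies counted as reads. It takes the CpGs of a read as independent, and is too small where they are linked.

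Along the interval methylation was low at most positions. The median position had an offspring mean of 12.9%, 509 of the 529 positions lay between 5% and 30%, 10 lay below 5% and 10 lay above 35%. Of the 8 windows of 1000 bp, the first and the last held 0 kept positions, and the other 6 had offspring means of 10.0% ± 3.73, 13.1% ± 4.88, 13.8% ± 5.05, 14.6% ± 5.09, 16.9% ± 4.81 and 13.1% ± 5.01 (SD, n = 20) in order of position. The level was lowest in the window from 39843001 and highest in that from 39847001. The latter lies inside Rn18s-rs5 (39846354 to 39848202, GRCm38.p6), a pseudogene related to 18S ribosomal RNA, which held 56 of the 529 positions. Another gene, the long noncoding RNA AY036118 (39848112 to 39898385), begins near the end of the interval and overlapped 89 positions. Rn45s itself has no entry in the gene table used. The level in the offspring was 15.3% ± 4.62 inside Rn18s-rs5 and 13.1% ± 4.78 at the 384 positions before it (SD, n = 20).

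**Figure D1:**
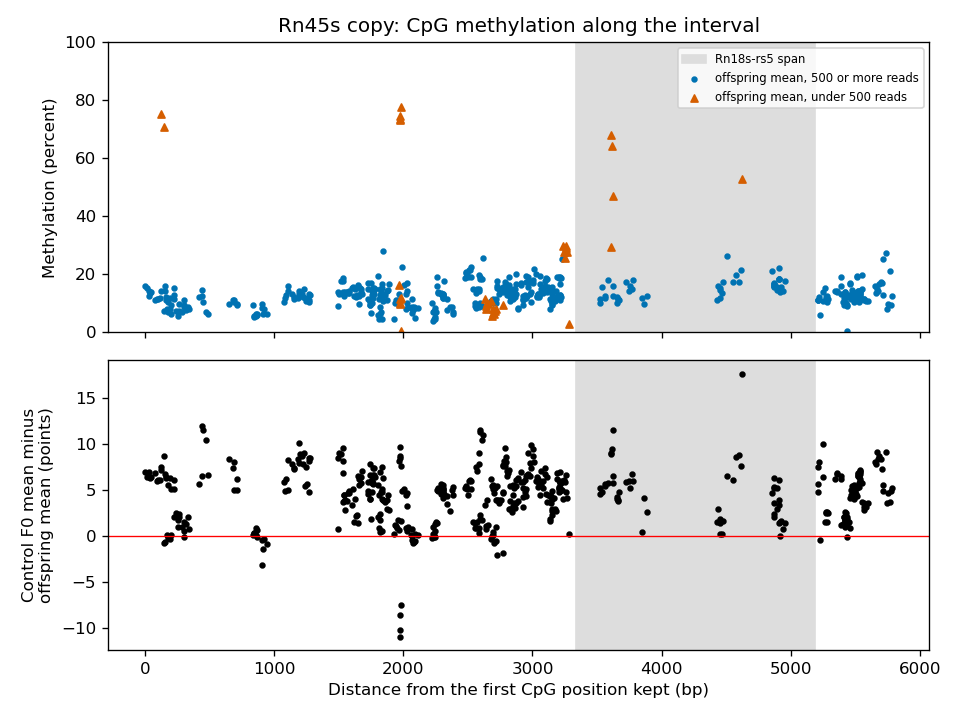
Methylation in percent at 529 CpG positions of the Rn45s copy (upper panel, mean of 20 offspring) and the difference of the control F0 mean (n = 3) from it in percentage points (lower panel), against the distance in bp from the first position kept; grey marks Rn18s-rs5. Positions of 500 or more reads (median of the offspring) stay at or below 28.04%, the 10 positions above 35% are all of lower depth, and the control F0 mean is above the offspring mean at 497 positions.

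The levels differed between mice, and a mouse that was high in 1 window was high in the others. In control F1 the interval read 18.2%, 16.3%, 12.1%, 15.07% and 13.5% methylated in replicates 1 to 5. In SSCT F1 it read 10.3%, 9.65%, 16.7%, 24.4% and 14.6%. In SSCT F2/M it read 17.3%, 6.99%, 18.01%, 8.04% and 14.99%, and in SSCT F2/P 7.13%, 16.7%, 6.13%, 8.14% and 11.2%. All 4 sets overlapped. The highest offspring mouse (SSCT F1 replicate 4) was 3.98 times the lowest (SSCT F2/P replicate 3), 6 of the 20 offspring were below 10%, 13 between 10% and 20% and 1 above. The SD between the offspring was 4.80 percentage points. Over the 23 mice other than SSCT F0 the SD was 5.20 points, beside a median of 6.06 over 4389 windows of 1000 bp with a mean of 5% to 25%, most of them of far lower depth. Of 10 such windows with at least 2000 reads in each mouse, 6 had an SD as large or larger, with a median of 5.53 over the 10. However, 8 of these 10 are the windows described below that follow the Rn45s level from mouse to mouse. They are no separate measure of how far deep windows vary.

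This spread ran along the whole of the measured stretch. The mouse with the highest level over the interval was the highest of the 20 in 6 of 6 windows, and the lowest mouse was the lowest in 6 of 6. Over the 20 offspring the level before Rn18s-rs5 was correlated with that inside it, with Pearson's r = 0.958 and Spearman's rho = 0.949 (permutation p = 1e-05 for each, the smallest that 100000 shuffles can give, adjusted 3e-05 over 3 relations). Without the 2 mice farthest from the median, r was 0.938. Within the 4 sets of 5 mice r was 0.936 to 0.975. At single positions the median r with the level of the interval was 0.909, a description, since the positions are part of the interval and share its reads.

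**Figure D2:**
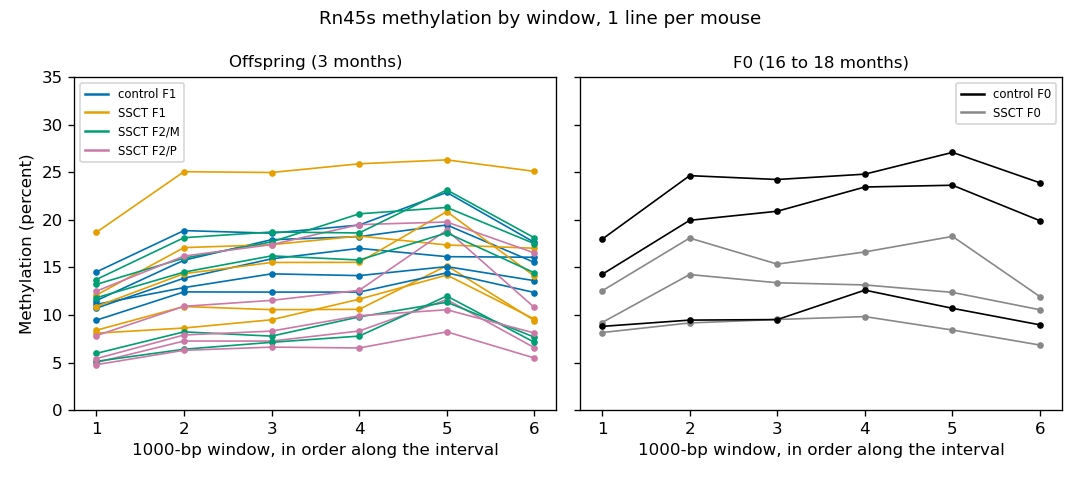
Methylation in percent of each mouse (1 line each) in the 6 windows of 1000 bp with kept positions, in order along the Rn45s copy, for the 20 offspring (left) and the 6 F0 mice (right), coloured by group. Lines in the middle cross between windows, while the highest and the lowest offspring mouse keep their place in all 6.

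No relation of the level with the number of reads passed the test. Reads at the Rn45s positions per 1000000 reads of the library (RPM), a relative measure of copies recovered, gave r = 0.186 (permutation p = 0.433, adjusted 0.433) and rho = 0.337 (permutation p = 0.1475, adjusted 0.1475) with the level over the 20 offspring, and r = 0.420 (permutation p = 0.08355) without the 2 mice farthest from the median. The mean level of all other positions in the same library gave r = 0.494 (permutation p = 0.0265, adjusted 0.0398) and rho = 0.465 (permutation p = 0.0414, adjusted 0.0620). Without the 2 farthest mice that r was 0.261 (permutation p = 0.295). Leaving out the most extreme mice also narrows the range of values, so whether the relation rested on them cannot be told.

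Between young and old mice no difference over the 529 positions passed the test. The control F0 mice read 23.6%, 9.85% and 20.2%, a mean of 17.9% ± 7.18 (SD, n = 3), and the 20 offspring 6.13% to 24.4% with a median of 14.04% and a mean of 13.3% ± 4.80 (SD, n = 20). Replicates 1 and 3 of control F0 were above all but 1 of the offspring and replicate 2 was among the lower ones, so the groups overlapped. The difference of 4.61 percentage points had an exact permutation p of 0.168 (two-sided, 1771 regroupings, adjusted 0.546 over 7 comparisons). Without control F0 replicate 2 it was 8.63 points with an exact permutation p of 0.026, so that 1 mouse decided the call. All 6 F0 mice, 14.99% ± 5.90 (SD, n = 6), differed from the offspring by 1.71 points (exact permutation p = 0.468), and without control F0 replicate 1 by -0.0208 points. At the 14 positions left by the upper coverage limit this difference was 8.22 points and passed the test (exact permutation p = 0.0203). Against control F1 alone the control F0 difference was 2.86 points (exact permutation p = 0.429), 4.81 points with the names of the heatmap and -0.0241 points without control F0 replicate 1.

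**Figure D3:**
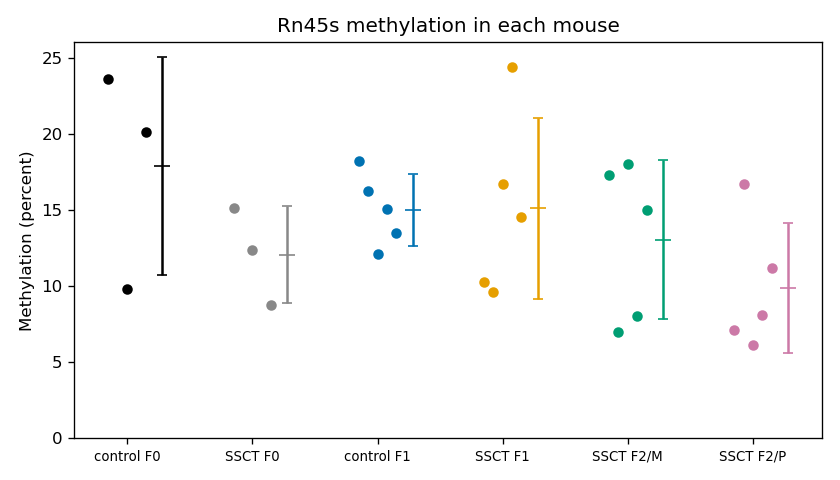
Rn45s methylation in percent for each mouse (points) in the 6 groups, with the mean and SD of each group (bar to the right of the points; n = 3 in each F0 group and 5 in each offspring set). SSCT F1 alone spans 9.65% to 24.4%, and every group overlaps every other.

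The difference was of like size in the window averages and varied between single positions. In the 6 windows control F0 exceeded the offspring by 3.61 to 5.66 percentage points (exact permutation p = 0.114 to 0.288), and the control F0 mean was above the offspring mean at 497 of the 529 positions, with a median of 4.85 points, a 10th percentile of 0.452, a 90th of 7.96 and a range of -11.0 to 17.7. These counts share the same 3 mice and are no independent evidence. The 3 positions with the largest difference were 39847633 on the reverse strand (70.5% against 52.8%, exact permutation p = 0.124), 39843456 on the forward strand (24.4% against 12.5%, exact permutation p = 0.00226) and 39845609 on the reverse strand (29.7% against 18.2%, exact permutation p = 0.0124), picked as largest and unadjusted. At 39843456 control F0 read 29.8%, 20.1% and 23.4%, and the offspring 4.16% to 21.1%.

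Each position was then tested with a chi-square test on the reads, which ignores how far mice of a group vary, and called at a q-value under 0.01 with a difference over 25 percentage points. Control F0 against all offspring gave 0 of 537 Rn45s positions, where 0.287% of all positions tested in the genome were called. Without the minimum difference 415 of the 537 (77.3%), 391 of them higher in control F0, had a q-value under 0.01, against 17.7% of all positions. With limma, which uses the spread between mice, 0 of 537 positions (0.00805% of all positions) had an adjusted p under 0.05, and 13 (2.42%) had an unadjusted p under 0.05, against 5.14% of all positions. An F test scaled by the spread called 0 (0.00414% of all), with 41 (7.64%) at an unadjusted p under 0.05, against 6.44% of all. The median difference over the 537 positions was 3.48 points.

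Between transplanted and control founders no difference over the whole interval could pass the test. SSCT F0 replicates 1, 2 and 3 read 15.1%, 12.4% and 8.74%, a mean of 12.1% ± 3.20 against 17.9% ± 7.18 (SD, n = 3 each), a difference of -5.80 percentage points with an exact permutation p of 0.3 and overlapping groups, where 3 mice against 3 cannot go below 0.1. Leaving out replicates 2 and 3, whose libraries listed the fewest positions, the remaining mouse was 2.77 points below the control F0 mean, and without control F0 replicate 2 the difference was -9.82 points. At the 14 positions left by the upper coverage limit the direction turned, to 5.42 points (exact permutation p = 0.3). The profile along the interval was less regular in SSCT F0. The correlation across positions with the mean of the offspring was 0.589, 0.336 and 0.0289 in replicates 1, 2 and 3, against 0.805 to 0.899 in control F0 and 0.838 to 0.965 in each offspring mouse with the others. Neighbouring positions within 50 bp on a strand differed by a median of 4.49, 5.04 and 5.73 points in SSCT F0 and by 1.55 to 3.04 in the other 23 mice, and in SSCT F0 replicate 3 113 of the 529 positions had 0 methylated reads against 0 to 12 in the mice outside SSCT F0. The part of the low input in these values was not tested.

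Of the 529 positions, 10 stood apart by high methylation at low depth, with offspring means of 46.9% to 77.9% while no other position exceeded 29.9%. They were chosen by that mean, lay in 4 stretches and had 84 to 250.5 reads in the median offspring mouse. At 39844995 on the reverse strand, the highest, the offspring mean was 77.9% ± 11.96 (SD, n = 20), whereas the other strand of this CpG (39844994) read 0.527%. At 39843136 the forward strand read 75.4% at a median of 135.5 reads and the reverse strand 14.3% at 4058 reads. Strands otherwise were close: 133 of 142 CpGs differed by 10 points or less, and the 6 that differed by over 50 points were all of these positions. The lowest position was 39848454 on the forward strand, with 0.27% ± 0.186 in the offspring and 0.128% in control F0 at a median of 1974 reads in the offspring. The nearest kept position before it on that strand (39848451) had 9.22%.

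At the 10 high positions the transplanted founders lay apart from all other mice. Pooled over them, control F0 read 87.4%, 59.5% and 74.3% and the offspring 49.9% to 86.6%, with a difference of 3.06 points (exact permutation p = 0.705). SSCT F0 read 36.8%, 18.2% and 7.23%, all below each of the other 23 mice. The offspring were high there by the choice of the positions, so only control F0 is a comparison apart from that choice. All 10, with 39844995 among them, are also lower calls of the next paragraph, so these are not separate findings. Against control F0 the difference was -53.0 points (exact permutation p = 0.1, the smallest possible). Their reads went the other way, with 116, 379 and 602 RPM in SSCT F0 against 80.4, 41.5 and 50.9 in control F0 and 10.5 to 56.0 in the offspring. Pooled over all other positions, the levels of SSCT F0 and control F0 overlapped, with means of 12.03% and 17.7%. At single positions, all 3 SSCT F0 mice were below all 3 control F0 mice at 61 of the 529, and the SSCT F0 mean was below the control F0 mean at 439. The share over all positions of the genome was not counted, so the 61 cannot be set against it.

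Calls between the founders lay in short stretches of the interval. Of the 33 lower ones, 10 were among the 529 positions, and these are the 10 high positions above. The chi-square test called 36 of 554 Rn45s positions (6.5%), 3 higher and 33 lower in SSCT F0, where 5.87% of all positions were called, a share close to the background. Without the minimum difference 498 of 554 (89.9%) passed, against 31.6% of all. The 33 lower positions lay in 8 stretches, with 9 between 39846614 and 39846639 inside Rn18s-rs5, 8 between 39846022 and 39846040 and 6 between 39848731 and 39848754. At 39846620 control F0 read 89.9% of 543 reads and SSCT F0 9.91% of 2846. These 33 were picked as lower in SSCT F0 from the same libraries, so their levels below describe them and are no separate support. Over the 33 together control F0 read 86.5%, 66.6% and 78.3% at 94.7, 107 and 94.96 RPM, and SSCT F0 46.0%, 23.8% and 13.8% at 214, 658 and 1499. Level and depth thus moved in opposite directions, in the order of the number of positions the libraries listed, and the part of the library in this was not tested. At 23 of the 33 all SSCT F0 mice were below all control F0 mice, as at 79 of the 554 tested. The share over all positions of the genome was not counted. With SSCT F0 replicates 2 and 3 left out a single mouse remains. The chi-square test can be run on its reads, but would describe that mouse and not the group, so no count is given. The F test called 0 (0% of all), with 42 (7.58%, against 11.5% of all) at an unadjusted p under 0.05, and limma called 0 of 554 (0.0633% of all), with 53 (9.57%, against 5.63% of all) at an unadjusted p under 0.05.

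Among the offspring no difference between sets passed the test. SSCT F1 was 15.1% ± 5.96 against 15.03% ± 2.38 in control F1 (SD, n = 5 each), a difference of 0.0924 percentage points (exact permutation p = 0.984), and -3.21 points (exact permutation p = 0.317) with the names of the heatmap. SSCT F2/M was 13.1% ± 5.21, 1.96 points below control F1 (exact permutation p = 0.437), with the opposite sign under the heatmap names. That difference was -0.437 points without SSCT F2/M replicate 2, -0.698 without replicate 4, -3.02 without replicate 1, -3.19 without replicate 3 and -1.16 without control F1 replicate 1. SSCT F2/P was the lowest set at 9.87% ± 4.28, with a difference of -5.16 points from control F1 (exact permutation p = 0.0556, adjusted 0.389 over 7 comparisons). Without SSCT F2/P replicate 2 that difference was -6.88 points with an exact permutation p of 0.0159, and under the heatmap names it was 2.05 points (exact permutation p = 0.563). Whatever the names, the lowest exact permutation p among the 6 pairs of the 4 sets was 0.0556 (adjusted 0.333), and 1 test over the 4 sets, added after the data had been seen, gave a permutation p of 0.279.

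Position by position, 0 of 540 Rn45s positions were called against control F1 in SSCT F1, 0 of 539 in the F2/M set and 0 of 541 in the F2/P set, where 0.46%, 0.418% and 0.428% of all positions were called. Without the minimum difference the counts were 154, 293 and 501 positions (28.5%, 54.4% and 92.6%), against 18.2%, 18.5% and 18.8% of all positions. The 501 in SSCT F2/P, 498 of them lower, thus stood beside a per-mouse difference that did not pass its test. Limma called 0 in each (0% of all), with 0, 1 and 106 (0%, 0.186% and 19.6%) at an unadjusted p under 0.05, against 4.34%, 4.33% and 4.59% of all positions. So did the F test (0% of all), with 2, 4 and 102 (0.37%, 0.742% and 18.9%), against 7.67%, 7.69% and 7.82% of all. Neighbouring Rn45s positions share reads and mice, so these counts are not independent of each other. Control F0 against control F1 gave 2 calls of 542 (0.861% of all), namely 39847633 on the reverse strand, 74.7% against 46.9%, and 39842309 on the forward strand, 61.5% of 91 reads against 87.8% of 82 reads. Without the minimum difference it gave 350 (64.6%, against 16.6% of all), while limma and the F test gave 0, with 2 (0.369%, against 4.78% of all) and 17 (3.14%, against 7.23% of all) at an unadjusted p under 0.05. On simulated reads of this comparison the F test recovered 0% of changed positions and limma 98%. The 0 calls of the F test there are thus no evidence of an absence of change. The simulated mice had no spread beyond counting, so the 98% need not hold for these mice. The other comparisons were not simulated.

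The share of reads at the Rn45s positions was highest in the transplanted founders. SSCT F0 had 25682, 25707 and 30321 RPM, control F0 23061, 21784 and 22736, and the offspring 17590 to 25348 with a median of 20295. All 3 SSCT F0 libraries were above all control F0 libraries and all offspring. The 6 F0 libraries had 24882 ± 3112 (SD, n = 6) against 20648 ± 1904 (SD, n = 20), 1.21 times as many (exact permutation p = 0.00134, adjusted 0.00936), and 6 of 6 were above the median of the offspring. Control F0 alone, 22527 ± 664 (SD, n = 3), was 1.09 times the offspring (exact permutation p = 0.122, adjusted 0.213, and 0.0364 without SSCT F2/P replicate 1), which does not pass the test. With SSCT F0 replicates 2 and 3 left out, the 4 other F0 mice were 2668 RPM above the offspring (exact permutation p = 0.0247). SSCT F0 replicates 2 and 3 were also the libraries that listed the fewest positions, and the part of this was not tested. SSCT F0 was 1.21 times control F0 (exact permutation p = 0.1, the smallest possible). The offspring sets, with means of 20988, 20175, 20413 and 21016 in control F1, SSCT F1, then the F2/M and the F2/P set, gave no difference that passed the test (exact permutation p = 0.405, 0.69 and 0.976 against control F1). Copy number and recovery of the fragments cannot be told apart from these reads.

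**Figure D4:**
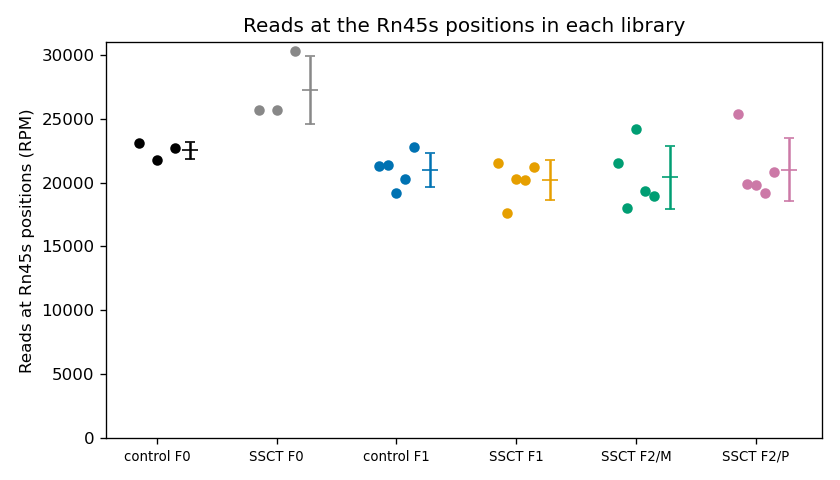
Reads at the Rn45s positions in RPM, for each library (points) by group, with the mean and SD of each group (n = 3 in each F0 group and 5 in each offspring set). The 3 SSCT F0 libraries lie above all others, and 1 library of SSCT F2/P lies apart from its group at 25348 RPM.

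A few windows elsewhere in the genome followed the Rn45s level from mouse to mouse. Over the 23 mice other than SSCT F0, 12623 windows of 1000 bp with a mean between 5% and 95% were compared, and the median r was 0.0417. The genes with the highest r were Gm36876, a predicted gene (chr11:109011001-109012000, 36 positions, r = 0.981), Cdk8, a kinase of the Mediator complex (chr5:146261001-146262000, 19 positions, r = 0.973), Cmss1 and Filip1l, which overlap and share a window (chr16:57391001-57392000, 7 positions, r = 0.932), and Jarid2, a partner of the Polycomb repressive complex (chr13:44869001-44870000, 8 positions, r = 0.927). Their means of 14.6% to 16.8% were close to the 13.9% of the Rn45s interval in the same mice, and so were their SDs of 5.30 to 7.52 beside 5.20. They too held far more reads than most, with 1152 to 2919 per position in the median mouse against 47.7 in the median window. In all, 8 windows were above r = 0.7, with Zc3h7a (r = 0.785) and 3 windows that lie inside no gene span, of which 1 touches Taco1, a count made after the values were seen. Of the 10 windows in the genome outside the interval with a mean of 5% to 25% and at least 2000 reads in each of the 23 mice, 8 were these. Points of a mouse share its library and depth, and whether these windows hold sequence related to the ribosomal RNA genes was not examined, since no genome sequence was used.

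**Figure D5:**
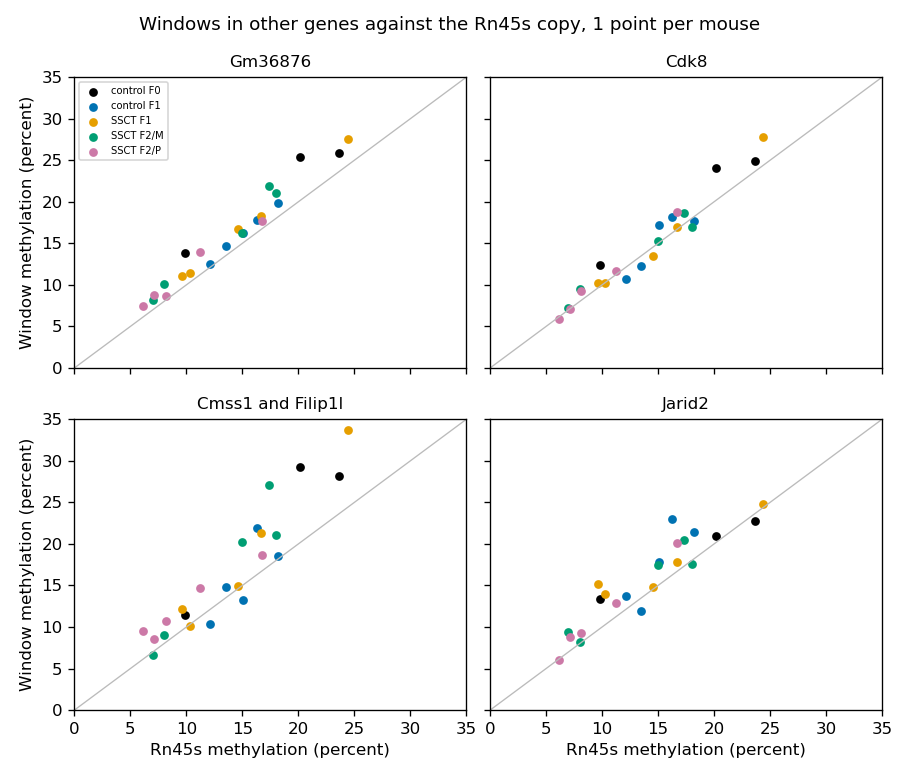
Methylation in percent of the window in Gm36876, Cdk8, Cmss1 and Filip1l, and Jarid2 (vertical axes) against that of the Rn45s interval (horizontal axes), 1 point for each of 23 mice, coloured by group; the grey line marks equal levels. The points follow the line, with r of 0.927 to 0.981.

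Genes of RNA polymerase I and of ribosomal DNA chromatin were themselves measured for the age contrast. Of 40 names looked up, 32 genes had CpG positions with at least 10 reads in the 23 mice, and control F0 was higher in 11 and lower in 21, with a median difference of -1.02 percentage points, beside -0.412 over 22343 genes, of which 41.1% were higher in control F0. An exact permutation p under 0.05 came out for 2 of the 32 (Ubtf and Tcof1), beside 5.38% of all genes. The largest differences were in Tcof1, which encodes the nucleolar protein treacle (62.4% ± 3.21 against 71.9975% ± 7.67, SD, n = 3 and 20, exact permutation p = 0.0395), in Rrn3, an initiation factor of RNA polymerase I (23.2% ± 11.3 against 31.1% ± 9.33, exact permutation p = 0.169), and in Hdac1, a histone deacetylase (15.3% ± 10.7 against 21.99% ± 7.93, exact permutation p = 0.199). The p-values are unadjusted, and none of the 22343 genes passed after Benjamini-Hochberg adjustment, where 1203 had an exact permutation p under 0.05.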

How the data were processed

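Epididymal sperm of 26 mice was measured by RRBS, sequenced as single reads of 50 bp. Per the submitters' processing notes, FastQC, Trim Galore 0.4.1, Bismark 0.20.0 and methylKit 1.7.0 were used, with the builds GRCm38 and mm10. For each library the authors deposited, per CpG position and strand, the methylated fraction and the raw read count (coverage), with no upper limit. Methylated reads were the product of both. Summed over positions, the reads of a library came to 45616751 to 87707577, with a read counted at each CpG it covers.

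A mouse's level was the read-weighted methylation over interval positions with at least 10 reads in all 26 libraries. RPM were the reads at these positions over all reads listed, each summed over CpG positions. Levels were compared with exact permutation tests over mice, two-sided, with Benjamini-Hochberg adjustment over the 7 comparisons of a measure. Nothing in the labels ties mice to litters. Positions were tested over the whole genome with a logistic likelihood-ratio test, as methylKit does, with limma 3.58.1 on log2((methylated + 1)/(unmethylated + 1)) reads and with an F test scaled by Pearson's chi-square. On simulated reads of control F0 against control F1, 99.5% of 200 positions changed by 45 points were recovered among 100000, with 0 false calls. The F test recovered 0% and limma 98% of them, with 3 false calls. The simulated mice had no spread beyond counting. Named are all genes of the table in the interval, its windows, the highest and lowest positions, the 3 with the largest age difference, 3 genes of a list of RNA polymerase I and the 5 genes most like Rn45s. These lists and the interval were chosen with earlier results of these data known. Same-numbered mice did not deviate together (r of -0.0231 to 0.0198 over 57 pairs), so the numbers pair no mice. P-values of the permutation tests, limma and the F test take in the spread between these samples. Those of the likelihood-ratio test on reads do not. Python 3.11.15 was used. No sequence is shown, since no genome was used.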

Additional observations from a re-analysis of the deposited data

Results flagged for a closer look

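The SSCT minus control difference in Rn45s RPM was 4710 in F0 and -813 in F1. The test of the difference between these effects, 5523 RPM, gave an exact permutation p of 0.0202 over 5040 regroupings, with all 3 SSCT F0 libraries above all control F0 libraries. Under the names of the study's heatmap the F1 effect was 603, the difference 4107 and the exact permutation p 0.175, so the result depends on how the offspring sets are named. The SSCT F0 libraries were those of lower input, and the part of this was not tested.

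In SSCT F2/P, replicate 1 lay apart from its group at 25348 RPM, with the nearest of the other 4 at 20825. Chance marks about 1 in 20 groups in this way, and 5 measures were looked at in the 4 sets of offspring. Its methylation of 7.13% lay within the range of its group.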

How the results depend on the processing

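Of 434 alternative values for 21 results, 376 were labelled as the same. For methylation, RPM and their correlation this meant the same direction and side of the threshold. For counts of calls it meant an equal or similar count. With an upper coverage limit at the top percentile of the study's methods, which leaves 14 of the 529 positions, the difference in methylation was 8.22 percentage points between 16-18-month and 3-month mice (exact permutation p = 0.0203), 5.42 for SSCT F0 against control F0, -1.58 for SSCT F1 and 1.49 for SSCT F2/M against control F1. RPM differed by -0.669 for control F0 and -1.60 for SSCT F2/P against control F1, and 13 positions were called between SSCT F0 and control F0. With the names of the study's heatmap, methylation differed from control F1 by -3.21 points in SSCT F1, 1.96 in the F2/M set and 2.05 in the F2/P set, RPM by 603, 575 and -238, and 1 position was called in SSCT F2/P.

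For calls, a minimum of 10 points gave 8 positions for control F0 against all offspring, 11 for control F0 against control F1, 199 for SSCT F0 against control F0, and 3, 4 and 7 for SSCT F1, the F2/M set and the F2/P set against control F1. No minimum gave 415, 350, 498, 154, 293 and 501 in the same order. The F test and limma gave 0 for control F0 against control F1 and 0 for SSCT F0 against control F0. A minimum of 20 reads gave 1 for control F0 against control F1. Leaving out SSCT F0 replicates 2 and 3 left a single mouse in SSCT F0, whose calls would not describe the group, so no count of calls is given. The replicate block gave 1 call for control F0 against control F1 and kept 19 of 20 results, but the numbers pair no mice, with 0 of 57 pairs above r = 0.1.

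Leaving out 1 mouse at a time, methylation differences ranged from -0.0208 to 2.96 points for age, 1.73 to 8.63 for control F0 against all offspring, -0.0241 to 6.88 for control F0 against control F1, -2.23 to 1.46 for SSCT F1, -3.19 to -0.437 for SSCT F2/M and -6.88 to -4.23 for SSCT F2/P. RPM ranged from 1612 to 2250 for control F0 against all offspring, -1524 to 21.7 for SSCT F2/M and -1055 to 483 for SSCT F2/P. Calls ranged from 0 to 5 for control F0 against all offspring, 0 to 6 for control F0 against control F1 and 0 to 1 for each of the 3 SSCT offspring sets. The cause of these changes was not tested. An alternative on the span of Rn45s in the gene table was not run, since Rn45s has no entry in that table. With 3 mice in each F0 group the number of mice, not depth, limits the precision. The values by Rn18s-rs5 span, SSCT F0 left out, and the 4 sets at once were chosen after seeing the data.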
